A study of Oryza sativa with 4 samples.

Results

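The nucleosomes described here had a summit in wild-type (WT) rice and none nearby in *oschz1-1*. A summit is the base at which the occupancy of a nucleosome peaks. Members were chosen by 2 readouts of the same comparison, the list of WT summits and the list of *oschz1-1* summits. A nucleosome of chromosomes 1 to 12 was taken if it had a WT summit, had no *oschz1-1* summit in its own entry, and had no *oschz1-1* summit of any entry within 150 bp. This rule found 102400 of 1395431 WT summits (7.34%), and these are called lost nucleosomes below. The word refers to the missing summit and not to the absence of histones from the site.

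MNase-seq was used, in which micrococcal nuclease digests linker DNA and the protected fragments are sequenced. The material was formaldehyde-fixed chromatin of seedlings 30 days old, kept under 14 h light (30 °C) and 10 h dark (28 °C) per day, and each genotype had 2 libraries. WT plants were labelled wild-type (NIP), and *oschz1-1* was a CRISPR/Cas9 knockout of *OsChz1* represented by a single mutant allele. Since the table gives a single value per genotype, the variation between replicates is unknown and no test was made. Columns named control were read as WT and columns named treat as *oschz1-1*, an inference from the order of the comparison that no label states, and an exchange would turn every lost nucleosome into a gained one.

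A nucleosome is DNA wrapped around a histone octamer, and arrays of nucleosomes separated by linker DNA form the chromatin fibre. Histone chaperones escort histones and help to place them on or take them off DNA. OsChz1 is a chaperone that binds H2A-H2B dimers and dimers with the variant H2A.Z, which is commonly found in nucleosomes near gene starts. A map of this kind averages over many cells, so that both the occupancy of a site and the spread of positions around it shape the recorded peak.

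WT listed a summit without a counterpart in the same entry at 279320 nucleosomes. An *oschz1-1* summit lay within 150 bp of 176920 of them, and these are called substituted here. The remaining 102400 lost nucleosomes were 36.7% of the WT-only summits. Both genotypes had a summit in the same entry at 1116111 nucleosomes, which are called shared. With the genotypes exchanged, the same rule found 113728 of 1409388 *oschz1-1* summits (8.07%), called gained nucleosomes. There were 11328 more gained than lost nucleosomes, a difference of 11.1% of the lost. A rule applied in either direction therefore returned members in both, with more on the mutant side.

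The occupancy signal was low in WT at most lost nucleosomes and lower still in *oschz1-1*. The WT value had a median of 13.5 with quartiles of 11.6 and 16.2. The value listed for *oschz1-1* in the same entries had a median of 6.55 with quartiles of 5.03 and 8.06. The sources used here do not state how the signal was scaled between genotypes, nor at which base the value of the genotype without a summit was read. The log2 ratio of *oschz1-1* to WT, taken after adding a pseudocount of 1, had a median of −1.01 with quartiles of −1.38 and −0.70. Lost nucleosomes thus kept a median signal in the mutant rather than falling to 0.

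A log2 ratio of −1 or less, which is at least 2-fold lower in *oschz1-1* on this scale, was found at 52179 lost nucleosomes (50.96%). Over all WT summits of the 12 chromosomes it was found at 131489, or 9.42%. The rule selected on the same contrast, so that these counts describe the selection. The share of lost nucleosomes was 23.5% with a pseudocount of 5, and 99.8% on the values at the position of largest difference, where one was listed. That position was itself chosen for its difference, and neither share was computed over all WT summits. For the gained nucleosomes, 58138 (51.12%) were at least 2-fold lower in WT, against 9.61% of all *oschz1-1* summits. At least 4-fold lower values in *oschz1-1* were found at 5817 lost nucleosomes (5.68%). In the gained class, 8080 (7.10%) were at least 4-fold lower in WT. No 4-fold share was computed over all WT summits.

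Shared nucleosomes had medians of 17.2 in WT and 17.1 in *oschz1-1*, with a median log2 ratio of −0.01. Substituted nucleosomes had medians of 14.5 and 8.08, with a median log2 ratio of −0.80. WT occupancy at lost nucleosomes was therefore the lowest of the 3 classes. Gained nucleosomes had a median of 13.5 in *oschz1-1* and 6.54 in WT, with a median log2 ratio of 1.01. These figures mirrored those of the lost nucleosomes.

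**Figure D1:**
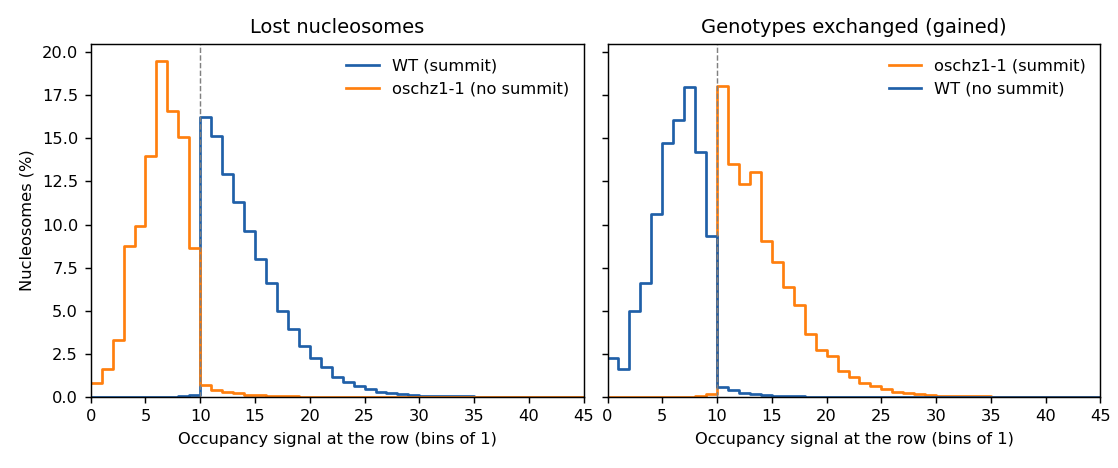
Distribution of the occupancy signal (x axis, arbitrary units in bins of 1) as a percentage of nucleosomes (y axis), for lost nucleosomes in the left panel and gained nucleosomes in the right panel. WT is blue, *oschz1-1* is orange and the dashed line marks a signal of 10. The genotype with the summit has its median at 13.5 in both panels, and the genotype without it has its median at 6.55 (left) or 6.54 (right).

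Most lost nucleosomes straddled a signal of 10. The WT value was at least 10 at 102228 of them (99.8%), and the *oschz1-1* value was less than 10 at 100510 (98.2%). Summits below this level were rare in the whole WT map, at 1273 (0.0912%), and in the whole *oschz1-1* map, at 1473 (0.105%). A pair of values on either side of 10 described 97.99% of the lost nucleosomes. With the genotypes exchanged it described 98.16% of the gained ones, so that it was not particular to the losses. Members were chosen for a missing mutant summit, so that part of this pattern was set by the selection. The share of such pairs was not computed over all WT summits. Some pairs at lost nucleosomes were close, since 6320 nucleosomes (6.17%) had 10 to 12 in WT and 8 to 10 in *oschz1-1*.

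The depth of the signal that remained in *oschz1-1* varied widely. It was 8 to 10 at 24269 lost nucleosomes, 5 to 8 at 51257 and 1 to 5 at 24172. It was less than 1 at 812 (0.793%), including 243 at which 0 was listed. Near-empty sites were thus a small minority of the losses.

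At the other extreme, 1890 lost nucleosomes (1.85%) still had an *oschz1-1* signal of at least 10. Their WT median was 16.4 and their median gap between flanking mutant summits was 395 bp. The *oschz1-1* value was not below the WT value at 235 of them (0.229% of the lost). Examples chosen after their values were seen lay at position 29762261 of chromosome 2, with 20.3 in WT and 23.1 in *oschz1-1*, and at position 16760301 of chromosome 3, with 19.3 and 19.4. The summit was missing at these sites although the signal was not lower.

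Highly occupied WT nucleosomes were seldom lost. A WT value of at least 20 was found at 8272 lost nucleosomes (8.08%), against 32.9% of shared nucleosomes. Values of at least 30 occurred at 232 lost nucleosomes, at which the *oschz1-1* median was 7.83. Only 9 had a value of at least 40.

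The 5 largest falls were all among nucleosomes with a WT signal above 40. The largest was at position 5926951 of chromosome 5 (build MSU7), from 46.4 in WT to 3.91 in *oschz1-1*. At position 13456549 of chromosome 9 the signal was 45.4 in WT and 3.05 in *oschz1-1*. These sites were isolated, with flanking mutant summits 975 bp and 950 bp apart and WT summits 970 bp and 1100 bp apart. The other 3 lay in denser arrays. At position 6143601 of chromosome 10 the signal was 45.9 and 7.21 with a gap of 355 bp in the mutant. At position 27687491 of chromosome 8 it was 45.3 and 8.69 with a gap of 325 bp. At position 3699011 of chromosome 7 it was 43.4 and 7.38 with a gap of 420 bp. The fall was thus found both at isolated sites and between close neighbours.

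The lost nucleosome of highest WT occupancy was also taken on each of the 12 chromosomes. Their WT values ranged from 33.3 to 48.8 with a median of 44.3, and their *oschz1-1* values from 3.05 to 35.6 with a median of 7.20. In 10 of the 12 the mutant value was below 10 and at least 2-fold lower. The exceptions were position 13494681 of chromosome 3, with 45.2 in WT and 35.6 in *oschz1-1*, and position 20505071 of chromosome 12, with 48.8 and 31.3. Both had wide WT peaks, with fuzziness of 59.4 and 56.4, and WT neighbours within 140 bp. The count of 10 describes the selection. Mutant values below 10 were found at 98.2% of all lost nucleosomes. From WT values this high, any mutant value below 10 is at least 2-fold lower. Over all WT summits, 9.42% were at least 2-fold lower.

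Fuzziness is the authors' score of how widely fragment positions spread around a nucleosome, and a lower score means a better fixed position. Lost nucleosomes had a median fuzziness of 51.9 in WT and of 57.3 in *oschz1-1*. It was higher in *oschz1-1* at 82238 of them (80.3%). The rise was more than 5 units at 51396 (50.2%), whereas a decrease of more than 5 units was found at 5143 (5.02%). Over all WT summits, 56.6% were higher, 23.2% by more than 5 units, and 13.5% were lower by more than 5 units. Members were selected on the missing mutant summit, so that a wider score in the mutant may come with the choice, and nothing is read from these counts.

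Shared nucleosomes had median fuzziness of 52.9 in WT and 53.0 in *oschz1-1*. It was higher in *oschz1-1* at 50.7% of them. Substituted nucleosomes began with a wider spread, at 56.1 in WT, had 61.2 in *oschz1-1*, and were higher there at 80.4%. WT fuzziness at lost nucleosomes was thus slightly below that of shared nucleosomes and well below that of substituted ones. Gained nucleosomes again gave the mirror image, with 52.0 in *oschz1-1* and 57.1 in WT, and higher values in WT at 78.6%.

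Below a remaining signal of 10, the spread in *oschz1-1* was larger where less signal remained. Its median was 54.4 at a remaining signal of 8 to 10, 57.2 at 5 to 8, 61.4 at 1 to 5 and 67.9 at less than 1. The 1890 sites at 10 or more broke this order, with a median of 57.3. A score computed on little signal carries little information, and the depth of the libraries is not given in the table. The 23 nucleosomes of the longest run described below, all with a signal of 0, had the same fuzziness of 62.0 listed.

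The 3 lost nucleosomes with the lowest WT fuzziness were taken among those at or above the upper quartile of WT occupancy, 16.2. They lay at position 13618814 of chromosome 11 (fuzziness 27.6), position 568224 of chromosome 10 (27.7) and position 20978928 of chromosome 7 (27.8). Their occupancy was 18.1 in WT and 8.28 in *oschz1-1*, 16.2 and 6.10, and 17.3 and 7.87, respectively. The WT summits on either side were 1708 bp, 827 bp and 1710 bp apart. The sites on chromosomes 11 and 10 nevertheless had a WT neighbour on one side at 165 bp and 175 bp. On chromosome 7 the WT neighbours were 877 bp and 833 bp away. Well fixed WT positions were thus among the losses.

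The share of WT summits that were lost differed with WT properties. By deciles of WT occupancy, 16.02% of summits were lost in the lowest decile (up to 11.4) and 0.920% in the highest (above 25.3). The share of *oschz1-1* summits that were gained took a similar course, from 17.4% to 1.07% by deciles of *oschz1-1* occupancy. The course along occupancy was thus not particular to the losses. By deciles of WT fuzziness, the share lost was 11.1% in the lowest and 4.21% in the highest. Substitution took the opposite course along fuzziness, from 2.37% to 31.3%. Weakly occupied summits and, taken separately, well fixed summits were therefore over-represented among the losses, and poorly fixed summits among the substituted. The gained share was not computed along fuzziness. How far the course along fuzziness follows from the limit of 150 bp was not tested.

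Spacing sorted the same classes. Among WT summits in the lowest decile of the distance between the WT summits on either side, 3.52% were lost and 30.1% were substituted. In the highest decile, 12.7% were lost and 7.37% were substituted. In a dense array another summit is more often near enough to meet the limit of 150 bp, so that the rule itself ties the class to spacing.

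**Figure D2:**
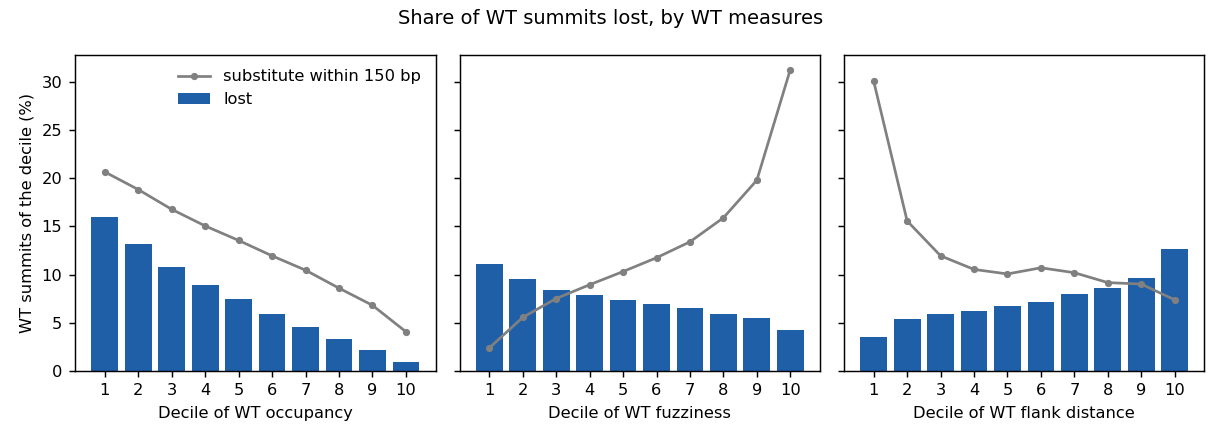
Percentage of WT summits (y axis) that were lost (blue bars) or had an *oschz1-1* substitute within 150 bp (grey line), by decile of WT occupancy, WT fuzziness and distance between flanking WT summits (x axes, decile 1 lowest). Losses drop from 16.02% to 0.920% with occupancy and from 11.1% to 4.21% with fuzziness, and rise from 3.52% to 12.7% with distance.

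The comparison was repeated within levels of WT occupancy. Within the quartiles of WT occupancy from lowest to highest, 13.9%, 8.64%, 4.91% and 1.83% of summits were lost. Lost nucleosomes had a lower median WT fuzziness than shared ones in each quartile, with 52.9 against 55.1 in the lowest and 49.2 against 50.6 in the highest. The median distance between flanking WT summits was wider for the lost in each quartile, with 510 bp against 445 bp in the lowest and 440 bp against 420 bp in the highest. The order of the medians was thus the same in every quartile of occupancy. How far these orders follow from the limit of 150 bp was not tested.

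Lost nucleosomes were somewhat more isolated in WT than shared ones. The nearest WT summit lay within 200 bp of 67717 lost nucleosomes (66.1%), against 75.7% of shared ones. It lay more than 500 bp away from 3285 lost nucleosomes (3.21%), against 1.22%. These solitary nucleosomes had a low median fuzziness in both genotypes, 42.5 in WT and 45.2 in *oschz1-1*, and a median gap of 1802 bp in the mutant.

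The limit of 150 bp cut through a continuous range. Substituted nucleosomes just outside the rule, with the nearest *oschz1-1* summit at 141 to 150 bp, numbered 16131 and had median occupancy of 14.0 in WT and 6.99 in *oschz1-1*. Lost nucleosomes just inside it, at 151 to 160 bp, numbered 15297 and had 13.8 and 6.94. Median fuzziness was 54.1 in WT and 60.6 in *oschz1-1* outside the limit, and 53.4 and 59.7 inside it. No step was seen at the limit.

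The nearest *oschz1-1* summit was at a median distance of 190 bp from the lost WT summit, with quartiles of 170 bp and 240 bp. It lay within 200 bp of 57.6% of the lost nucleosomes, within 300 bp of 86.4% and within 500 bp of 96.8%. The rule removed every site with a distance of 150 bp or less, so that these distances start just above the limit by construction.

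Remaining signal differed little with that distance. The median *oschz1-1* occupancy was 6.76 where the nearest mutant summit was over 150 and up to 200 bp away, and 6.55 where it was over 500 bp away. WT fuzziness did differ, with medians of 52.6 and 43.0 in these classes. Only 3280 lost nucleosomes (3.20%) were in the class over 500 bp.

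The gap left in *oschz1-1* was measured between the nearest mutant summits on either side of the lost WT summit. Its median was 525 bp with quartiles of 412 bp and 700 bp, and the rule allows none of 300 bp or less. The WT summits on either side of the same nucleosomes were a median of 490 bp apart, and those on either side of shared nucleosomes 430 bp. The difference between the mutant gap and the WT distance at the same site had a median of 20 bp with quartiles of −70 bp and 140 bp. The mutant summits beside a loss were thus typically about as far apart as the WT summits beside it, with a wide range.

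The gap was wider than the WT distance at 58019 lost nucleosomes (56.7%) and narrower at 41923 (40.9%). It was within 50 bp of the WT distance at 33805 (33.0%). By size, 20103 gaps (19.6%) were 300 to 400 bp, 44195 (43.2%) were 400 to 600 bp, 28113 (27.5%) were 600 to 1000 bp and 9984 (9.75%) were 1000 bp or more. Large gaps were often large before the loss, because 6152 of the 9984 had a WT distance of at least 1000 bp already, whereas 1750 had less than 600 bp in WT. Gaps of at least 2000 bp numbered 2707, against 2861 such distances in WT around the same nucleosomes.

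**Figure D3:**
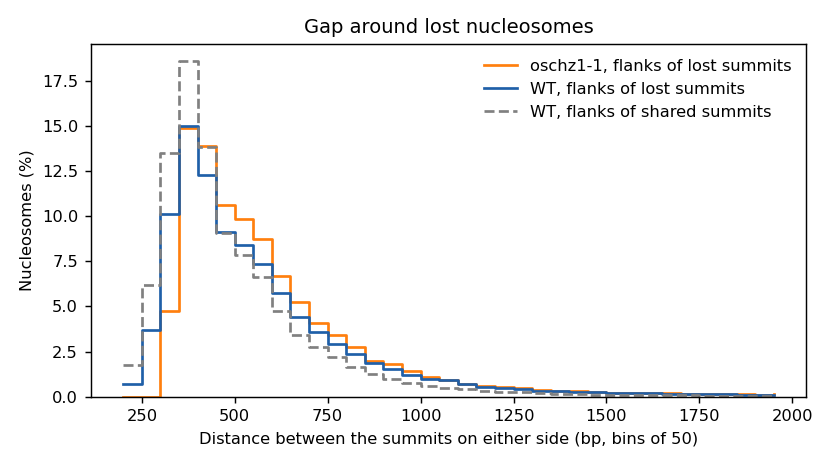
Distance between the nearest summits on either side (x axis, bp in bins of 50, up to 2000 bp) as a percentage of nucleosomes (y axis). Orange is the *oschz1-1* gap at lost nucleosomes, blue the WT distance at the same nucleosomes, and dashed grey the WT distance at shared nucleosomes, with medians of 525, 490 and 430 bp.

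A plain array setting was examined by taking lost nucleosomes with a WT summit 150 to 220 bp away on each side. There were 17333 of these (16.9% of the lost). Their WT flanking summits were a median of 370 bp apart and the mutant summits 410 bp. The mutant gap was within 50 bp of the WT distance at 9298 (53.6%) and reached 600 bp at 2616 (15.1%). Median occupancy was 14.0 in WT and 6.96 in *oschz1-1*, against 18.3 and 17.9 for shared nucleosomes in the same setting. The setting fixes the WT distance at 300 to 440 bp and the rule allows no mutant gap of 300 bp or less, so that part of the closeness was set by the selection. Whether the flanking summits were the same nucleosomes in both maps was not tested.

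The 5 widest gaps lay in stretches where the distance between WT summits was similar or wider. Around position 12328716 of chromosome 11 the gap was 223612 bp in *oschz1-1* and 226130 bp in WT. The lost nucleosome at position 15773514 of chromosome 4 sat in a gap of 88620 bp, with 88670 bp in WT. At position 34110111 of chromosome 2 the distances were 51530 bp and 79800 bp. At position 30658656 of chromosome 6 they were 44080 bp and 48505 bp, and at position 4141406 of chromosome 10 they were 43540 bp and 43395 bp. These stretches were present in both maps.

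Gaps that widened most were listed after their values were seen. Positions 14306429 and 14276291 of chromosome 4 shared a mutant gap of 38025 bp, with WT distances of 10945 bp and 13615 bp. At position 23314761 of chromosome 2 the gap was 24870 bp in the mutant and 3430 bp in WT. At 4 lost nucleosomes, on chromosomes 2, 8, 10 and 12, a mutant summit was listed on one side only and no gap was computed.

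Summits found only in *oschz1-1* were less frequent around lost nucleosomes than around the other classes. One lay within 300 bp of 25.1% of lost nucleosomes, 34.5% of shared and 49.3% of substituted ones. Within 500 bp the shares were 47.9%, 54.2% and 65.9%. The rule removes any such summit within 150 bp of a lost nucleosome and of no other class, which lowers the share.

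Shared nucleosomes next to a loss varied in both directions. Among 111108 shared nucleosomes that were the next neighbour within 300 bp of a lost summit, the median log2 ratio was 0.01 with quartiles of −0.29 and 0.30. Around shared centres the median was −0.01 with quartiles of −0.31 and 0.29. The mutant summit was displaced away from the lost site at 51.5%, towards it at 36.4% and not at all at 12.1%, with a mean displacement of −6.95 bp, where negative values point away. Around gained nucleosomes the corresponding shares were 52.2% and 36.1%. Shared centres gave 46.0% and 42.1%. The rule excludes mutant summits that came within 150 bp, so that part of this direction was set by the selection.

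Losses occurred mostly one at a time. Of the lost nucleosomes, 74676 had no lost WT neighbour. The other 27724 (27.1%) formed 12652 runs, defined as at least 2 WT summits next to each other that were all lost. Among shared nucleosomes, 13.3% had at least 1 lost WT neighbour. There were 10646 runs of 2, 1679 of 3, 274 of 4, 38 of 5, 12 of 6, 2 of 7 and 1 of 23. Runs of at least 3 held 6432 lost nucleosomes (6.28%). Gained nucleosomes were in runs more often, at 31.5%, or 30.4% without chromosomes 10 and 11, and their longest run held 239 nucleosomes, or 8 without these 2 chromosomes.

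Immediate WT neighbours of a lost nucleosome were themselves lost at 30144 of 204795 places (14.7%), against 6.91% for neighbours of shared nucleosomes. The excess was greatest at short range. At distances of 100 to 150 bp the shares were 31.6% and 2.94%, at 150 to 200 bp 15.3% and 6.51%, at 200 to 300 bp 10.4% and 7.35%, and at 300 to 500 bp 10.1% and 8.94%. Summits closer than 300 bp share part of the window that must be free of mutant summits, so that losses at short range are tied together by the rule. Beyond that range the shares were closer.

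Nucleosomes in short runs resembled single losses. The median WT occupancy was 13.6 for singles, 13.4 for runs of 2, 13.1 for runs of 3 and 12.8 for longer runs. The median gap grew with the length of the run, from 465 bp for singles to 670 bp, 890 bp and 1120 bp. A longer run spans more WT summits, each over 150 bp from any mutant summit, so that this growth largely follows from the definitions.

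The longest run stood apart. It covered 23 consecutive WT nucleosomes at positions 19831821 to 19835881 of chromosome 3, a distance of 4060 bp. WT occupancy there was 11.6 at the lowest, 17.5 at the median and 24.1 at the highest, and *oschz1-1* was listed at 0 for all 23. Spacing of the WT summits varied from 105 to 330 bp with a median of 176 bp, and their median fuzziness was 55.8. WT therefore had a series of summits where the mutant had no signal.

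Mutant summits bordered the run 480 bp to its left and 195 bp to its right, leaving a gap of 4735 bp. The nearest shared nucleosome was 820 bp away on the left, with 12.2 in WT and 21.6 in *oschz1-1*, and 130 bp away on the right, with 16.4 and 10.0. Signal was thus present in both genotypes on either side. Outside this run, 220 lost nucleosomes with 0 in *oschz1-1* were spread over the chromosomes at 10 to 27 each, with at most 2 in any run. Whether the DNA of this stretch was present in the mutant was not tested.

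**Figure D4:**
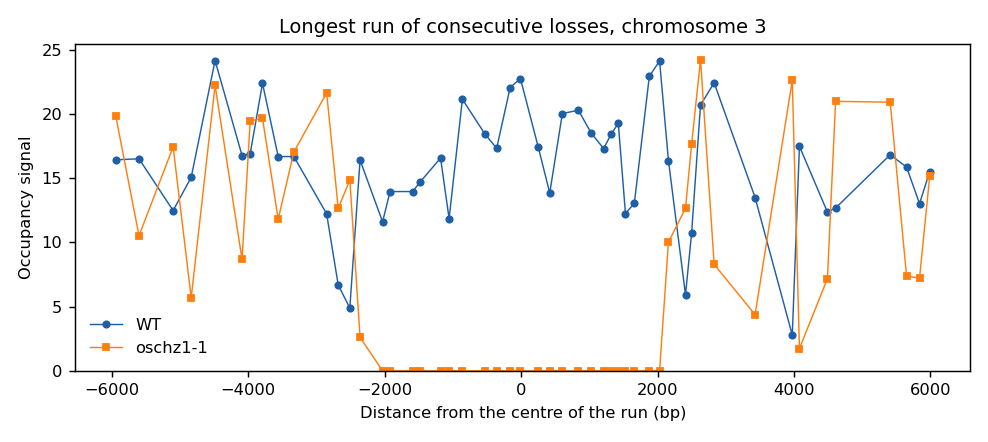
Occupancy signal (y axis) at each listed nucleosome against its distance from the centre of the longest run (x axis, bp) on chromosome 3, with WT as blue circles and *oschz1-1* as orange squares. All 23 nucleosomes of the run are at 0 in *oschz1-1* and between 11.6 and 24.1 in WT, and both genotypes have signal on either side.

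The next 4 runs had a different form, with reduced signal instead of none. On chromosome 5, a run of 7 at positions 10126801 to 10128551 had a median of 12.5 in WT (10.5 to 28.3) and 5.67 in *oschz1-1* (4.35 to 8.26). The other run of 7, at positions 22586956 to 22589731 of the same chromosome, had medians of 14.9 (11.1 to 18.0) and 6.55 (2.39 to 9.42). Mutant summits lay between the lost positions of these runs, 2 in the former and 1 in the latter, each more than 150 bp from every lost summit.

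Runs of 6 were chosen by their summed WT occupancy. On chromosome 7, at positions 7814511 to 7815601, the medians were 14.8 in WT (10.6 to 24.3) and 5.79 in *oschz1-1* (3.71 to 7.83), with 3 mutant summits between the lost positions. On chromosome 9, at positions 2171956 to 2172761, the medians were 15.9 (10.5 to 19.0) and 7.07 (2.16 to 9.19). This last run held no mutant summit, and its gap was 1440 bp. WT and mutant values did not overlap within any of these 4 runs, which the choice of members nearly fixed. A WT value of at least 10 and a mutant value below 10 were found at 97.99% of all lost nucleosomes.

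Lost nucleosomes were spread over the whole genome. Their density was 274 per Mb over the 373 Mb spanned by listed nucleosomes, or 1 per 3.64 kb. By chromosome it ranged from 253 per Mb on chromosome 11 to 292 per Mb on chromosome 3. As a share of WT summits it ranged from 6.90% on chromosome 11 to 7.65% on chromosome 1. No chromosome was free of losses or held most of them.

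The ratio of lost to gained nucleosomes was below 1 on every chromosome. It was 0.747 on chromosome 11 and 0.861 on chromosome 10, and 0.888 to 0.946 on the other 10. Of the gained nucleosomes, 2555 had a WT signal of less than 1, and 1935 of these were on chromosomes 10 and 11. Lost nucleosomes had no such concentration, with 102 of their 812 near-empty sites on chromosome 3, including the run of 23.

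In 367 full bins of 1 Mb, the number of lost nucleosomes had a median of 276 and ranged from 120 to 361. As a share of the WT summits of a bin it had a median of 7.35% and ranged from 5.05% to 10.7%. The bins with the most were 29000001 to 30000000 of chromosome 2 with 361, the bins starting at 9000001 of chromosome 1 and 25000001 of chromosome 12 with 338 each, 20000001 of chromosome 9 with 337 and 30000001 of chromosome 1 with 335. The fewest, 120, were in the bin starting at 12000001 of chromosome 11, which holds the widest gap. The next fewest were 164 and 170 at 9000001 and 15000001 of chromosome 4, 186 at 18000001 of chromosome 3 and 194 at 10000001 of chromosome 7. These bins were ranked by number, and as a share of their WT summits the first 5 lost 8.20% to 9.07% and the last 5 lost 5.48% to 7.55%. The bin starting at 15000001 of chromosome 4 had few WT summits (2252) and lost 7.55% of them, above the median bin. The highest share, 10.7%, was in the bin starting at 14000001 of chromosome 4, with 254 of 2383, which was named after its value was seen.

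**Figure D5:**
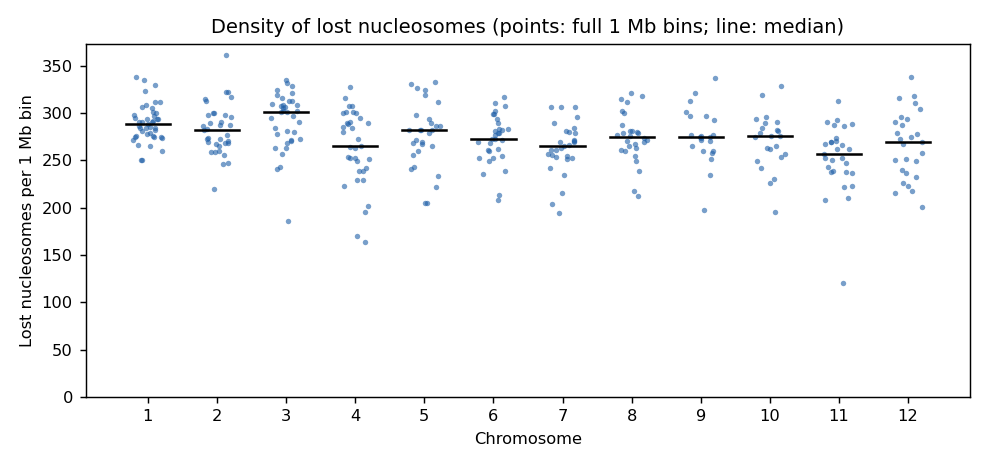
Lost nucleosomes per full 1 Mb bin (y axis) by chromosome (x axis), with 1 point per bin and a line at the median of each chromosome. The 367 bins range from 120 to 361 and every chromosome overlaps the others.

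Bins with more WT summits held more losses, with Pearson's r of 0.56 and Spearman's rho of 0.42 over the 367 bins. Numbers of lost and gained nucleosomes in a bin gave an r of 0.18 and a rho of 0.48. Without chromosomes 10 and 11 they gave 0.60 and 0.51 over 315 bins. Bins come from the same merged maps and share the number of summits, so that these values are descriptions. Gained nucleosomes outnumbered lost ones in 307 of the 367 bins.

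At a finer scale, consecutive lost nucleosomes were a median of 2300 bp apart, with quartiles of 870 bp and 4920 bp. Of 37327 bins of 10 kb, 3608 (9.67%) held no loss, the median was 3 and 74 held at least 10. The highest number, 25, was in the bin that contains the run of 23.

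The table also listed, for some nucleosomes, the position at which the 2 maps differed most. It did so for 26074 lost nucleosomes (25.5%), against 11.8% of shared and 25.9% of gained ones. In 96.7% of these it lay within 73 bp of the WT summit. At these 25204 positions, a median of 20 bp from the summit, the median signal was 14.5 in WT and 2.60 in *oschz1-1*. The position was itself chosen for its difference, so that the lower mutant value follows from that choice.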

How the data were processed

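Read pairs were aligned by the authors to build MSU7 of rice with Bowtie2 2.3.4.1. They removed reads of mapping quality below 20 and potential PCR duplicates with SAMtools, and positioned nucleosomes with DANPOS. A single table of 17 columns was analysed. Occupancy is a signal deposited with 1 value per genotype of 2 libraries, and how it was scaled is not given in the sources used here. Fuzziness is a score deposited by the authors, as is the occupancy at the position of largest difference. Summit positions are bases of MSU7 as deposited. The control columns were taken as WT and the treated columns as *oschz1-1*, which no label states. The authors' own comparisons, 6 columns of p-values and FDR, were not used. The depth of the libraries is unknown.

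Python 3.11.15 was used with numpy 2.4.6, pandas 2.3.3, scipy 1.17.1 and matplotlib 3.10.9. Log2 ratios were taken after adding a pseudocount of 1. Members, measures and named nucleosomes were chosen with earlier results of these data known. Named were the 5 largest falls, the 5 widest gaps, the 5 longest runs, the member of highest WT occupancy on each chromosome, the 3 of lowest WT fuzziness at or above the upper quartile of WT occupancy, and the 5 bins with the most and the 5 with the fewest members. The functions were tested on simulated data. Alternatives changed the distance limit, the minimum WT occupancy, the pseudocount, the value, the fold, the length of a run and the direction of the rule. Sequences and gene annotation of MSU7 were not analysed here.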

Additional observations from a re-analysis of the deposited data

How the results depend on the processing

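No paired analysis was possible because the table gives 1 value per genotype, and no replicate could be left out for the same reason. No result reversed, but members were chosen on the same contrast in every alternative, so that a reversal was hardly possible. Of 70 values over 8 results, 58 moved by more than their 95% counting interval or, for the number and the density, by more than 1.5 times. That interval treats the nucleosomes of 1 map as independent and says nothing of the variation between libraries, so that shifts in the second decimal of a median also passed it. Requiring no *oschz1-1* summit within 100, 200 or 300 bp gave 207982, 43404 and 13940 lost nucleosomes (557, 116 and 37.4 per Mb). The median WT occupancy was then 13.8, 13.2 and 12.96, the median *oschz1-1* occupancy 6.99, 6.51 and 6.53, the median log2 ratio −0.95, −1.02 and −0.99, and the share at least 2-fold lower 46.5%, 51.3% and 49.0%. The median gap was 415, 680 and 970 bp, and 30.2%, 27.8% and 28.0% were in runs. Number, density and gap thus depended on the limit far more than occupancy did. Keeping lost nucleosomes at or above the lower quartile (13.3) or the median (16.5) of WT occupancy left 53857 and 23718 (144 and 63.6 per Mb), with WT medians of 16.1 and 18.8, *oschz1-1* medians of 6.96 and 7.19, log2 ratios of −1.18 and −1.34, shares of 66.8% and 84.0%, gaps of 510 and 495 bp, and 13.6% and 6.004% in runs. A pseudocount of 0.1 or 5 gave log2 ratios of −1.11 and −0.73 and shares of 57.9% and 23.5%. The value at the position of largest difference gave −2.09 and 99.8%, and 4-fold in place of 2-fold gave 5.68%. None of the shares at these alternative settings was computed over all WT summits. Runs of at least 3 held 6.28%. With the genotypes exchanged, the medians were 13.5 in *oschz1-1* and 6.54 in WT, the gap 550 bp and the share in runs 31.5%. The last 2 alternatives were chosen after seeing the data. Exchanged and without chromosomes 10 and 11, the medians were 13.5 in *oschz1-1* and 6.54 in WT. The log2 ratio, here of WT to *oschz1-1*, was −1.003, the share 50.2%, the gap 550 bp and the share in runs 30.4%. Without the run of 23 on chromosome 3, all 8 results stayed within their intervals. Alternatives that need sequence or annotation were not run. The unknown depth limits how far the difference between a signal of 8 and one of 12 can be read.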

Other observations

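Sequences outside the 12 chromosomes were left out of the report. Of 1138 WT summits on ChrSy, the rule found 68 lost (5.98%), with median occupancy of 13.9 in WT and 6.33 in *oschz1-1*, and 78 gained nucleosomes (6.81% of the *oschz1-1* summits). Of 194 WT summits on ChrUn, 11 were lost (5.67%), with medians of 13.04 and 6.53, and 12 nucleosomes were gained (6.06%).

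WT summits on a 10 bp grid made up 80.7% of the lost and 86.5% of all WT summits. In 60 of the 26074 lost nucleosomes with a listed position of largest difference (0.230%), that position was more than 1000 bp from the summit.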
